A study of Sus scrofa with 4 samples.

Results

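The genes described here are CCNA2, CCNB1, CCNB2, CCNE1 and CCNE2, which encode cyclins A, B and E, CDK1 and CDK2, which encode their kinases, and CDC25A, CDC25B and CDC25C, which encode the phosphatases that switch those kinases on. They are 10 of the 29884 rows of a read count table, chosen by name, and all 10 passed the filter on low counts with 14352 genes in all. RNA sequencing measured them in granulosa cells, the somatic cells that surround the oocyte in the ovarian follicle, taken from antral follicles of the pig. Part of the cells had been used for flow cytometry of the cell cycle, and the rest were assigned to groups by how many of those cells were in G0/G1, that is, not yet copying their DNA. The groups are granulosa cells with a high G0/G1 share (2 libraries) and granulosa cells with a low G0/G1 share (2 libraries). The labels give no breed, age, treatment or genotype for either group, and do not state whether both libraries of a group derive from different animals or from pooled follicles. The p-values therefore reflect only how far these libraries spread, which may be technical.

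A cyclin-dependent kinase works only when bound to its cyclin, and the cyclins are made and destroyed in turn as the cell cycle runs. Cyclin E with CDK2 acts at the entry into S phase, cyclin A with CDK2 and later CDK1 acts through S phase and G2, and cyclin B with CDK1 drives mitosis. The kinases WEE1 and PKMYT1 hold CDK1 inactive by phosphorylation, and the CDC25 phosphatases remove that mark. Granulosa cells divide as a follicle grows and leave the cycle when they become luteal cells after ovulation. The messenger RNAs of cyclins A and B and of CDK1 are scarce in resting cells and build up towards mitosis. Their level in a bulk sample thus depends in part on the share of cells in S, G2 and M. Fewer cells in those phases and less RNA per cell cannot be told apart in bulk libraries. Since the grouping itself was by G0/G1 share, lower values of S, G2 and M phase genes in the high group are close to what it selects.

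Library totals ran from 27442850 to 32674921 counts. Levels are in CPM, each count set against its library's total, which edgeR's TMM method had scaled for composition. The counts of the 10 genes ran from 26 (CCNE1 in high replicate 2) to 6794 (CCNB1 in low replicate 1). CPM is not divided by transcript length, so levels are compared between libraries and not between genes. The 10 granulosa markers, FSHR, FOXL2 and INHA among them, were present in every library and summed to 17191 and 10665 CPM in high G0/G1 cells and to 12741 and 11299 CPM in low G0/G1 cells. Of these markers 7 were lower in both high libraries than in both low ones and 3 were higher, and their part in the values below was not tested. The zona pellucida genes ZP2 and ZP4 and the oocyte genes OOEP and FIGLA were at 0 in all 4 libraries, and 8 of 11 oocyte markers had at most 3 counts in any library, while GDF9 had 259 and 266 counts in the high group and 204 and 331 counts in the low group. Endothelial markers summed to 53.3 and 29.4 CPM in high G0/G1 cells and to 60.7 and 64.3 CPM in low G0/G1 cells. The low sums were close only because of TIE1, at 56.5 CPM in low replicate 1 and 22.3 CPM in low replicate 2. PECAM1, CDH5, VWF and TEK were lowest in low replicate 1 and highest in low replicate 2. PECAM1 stood there at 2.54 and 9.54 CPM, and CDH5 at 0.125 and 6.21 CPM. EMCN was lowest in low replicate 1 and highest in high replicate 2. Leukocyte markers summed to at most 15.5 CPM in any library. Low replicate 2 stood apart in most stromal and some theca genes. It was the highest library for COL1A1, COL1A2, COL3A1, DCN and LUM of the stroma and for CYP17A1, INSL3 and ACTA2 of the theca. The stromal marker PDGFRA and the theca marker MYH11 were highest in high replicate 2, at 18.6 and 5.37 CPM. The theca marker NR2F2 was lowest in low replicate 2, at 25.9 CPM. The 6 stromal markers summed to 86.9 and 115 CPM in high G0/G1 cells and to 34.8 and 1421 CPM in low G0/G1 cells, and the 5 theca markers to 75.2 and 90.9 CPM in high G0/G1 cells and to 121 and 488 CPM in low G0/G1 cells. Of the 10 cyclin, kinase and phosphatase genes 7 were higher in low replicate 1 than in low replicate 2. Low replicate 1 had the lowest stromal sum. The part of stromal, theca and endothelial cells in the values of the 10 genes was not tested.

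Of the 10 genes, 9 were lower in both high G0/G1 libraries than in either low G0/G1 library, and CCNE2 alone among them overlapped between the groups. The fitted level in high G0/G1 cells was 5.56-fold lower than in low G0/G1 cells for CCNB1, 3.71-fold for CDK1, 3.49-fold for CDC25A and 1.12-fold for CCNE2. Over all genes tested 29.8% had both high libraries below both low ones. None of the 10 passed the threshold of an adjusted p under 0.05 in edgeR's quasi-likelihood test, and neither did any of the 14352 genes, so that 0% were called in either direction. At an unadjusted p under 0.05, 8 of the 10 were lower and 0 higher, against 10.8% of all genes lower and 9.92% higher. The median log2 fold change, high minus low, was -1.88 over the 10 genes and -0.01 over all genes tested.

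**Figure D1:**
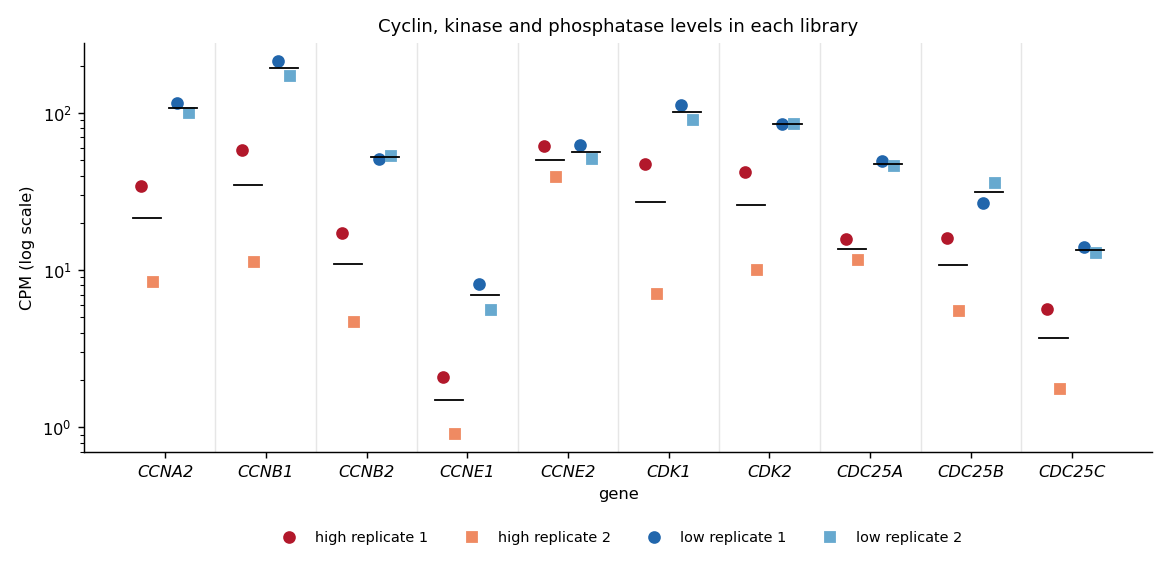
Level of each gene in each library, in CPM on a log axis, with high G0/G1 libraries in red tones on the left and low G0/G1 libraries in blue tones on the right of each gene. Black lines mark group means of 2 libraries. High replicate 2 is the lowest library for all 10 genes, and the groups overlap for CCNE2.

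The cyclins of S phase and mitosis showed the largest differences of the 10 genes. CCNA2 (chromosome 8, 102260346 to 102266274 in Sscrofa11.1) encodes cyclin A2, the cyclin of S phase and G2 in somatic cells. It stood at 34.6 and 8.43 CPM in high G0/G1 cells, against 115 and 99.9 CPM in low G0/G1 cells. The low libraries lay close together and the high libraries were 4.10-fold apart, so that the group means were 21.5 ± 18.5 CPM in high and 107 ± 10.6 CPM in low G0/G1 cells (SD, n = 2 each). The log2 fold change was -2.32 ± 0.67 (SE, edgeR adjusted p = 0.182). CCNA2 shares 619 bases of its span with EXOSC9, a subunit gene of the RNA exosome, whose own log2 fold change was -0.19 ± 0.32 (edgeR adjusted p = 0.763).

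CCNB1 (chromosome 16, 47338239 to 47348385) encodes cyclin B1, the main partner of CDK1 at the entry into mitosis. Its levels were 58.0 and 11.3 CPM in high G0/G1 cells and 213 and 173 CPM in low G0/G1 cells. This was the largest fold change of the 10 genes, at -2.48 ± 0.76 on the log2 scale (SE, edgeR adjusted p = 0.195), with a 95% interval from -4.42 to -0.54. CCNB2 (chromosome 1, 112907047 to 112942218), the gene of cyclin B2, which in mammalian cells is found mainly at the Golgi apparatus, had 17.3 and 4.70 CPM in high G0/G1 cells and 51.1 and 53.2 CPM in low G0/G1 cells. Both B cyclins thus had high replicate 1 between high replicate 2 and the low libraries. The log2 fold change of CCNB2 was -2.24 ± 0.62 (SE, edgeR adjusted p = 0.179).

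The E cyclins, which act at the start of S phase, differed from each other. CCNE1 (chromosome 6, 39919541 to 39933224) had 2.08 and 0.913 CPM in high G0/G1 cells and 8.22 and 5.62 CPM in low G0/G1 cells, with no overlap. Its lowest value rests on 26 counts, with an exact Poisson interval of 0.596 to 1.34 CPM that covers counting error only. The log2 fold change of CCNE1 was -2.21 ± 0.58 (SE, edgeR adjusted p = 0.175). CCNE2 (chromosome 4, 41802090 to 41821870) had 62.1 and 39.1 CPM in high G0/G1 cells and 62.5 and 51.2 CPM in low G0/G1 cells. High replicate 1 and low replicate 1 were thus nearly level for CCNE2, with high replicate 2 below both low libraries. Its log2 fold change was -0.17 ± 0.29 (SE, edgeR adjusted p = 0.773), and the 95% interval ran from -0.92 to 0.58.

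The reads of CCNE1 and CCNE2 can be set against each other within a library, where scaling plays no part. The count of CCNE1 was 0.0335 and 0.0234 of that of CCNE2 in the high group, against 0.132 and 0.110 in the low group. The groups did not overlap, and the mean ratio was 4.24-fold lower in the high group than in the low group. An exact permutation test of 2 libraries against 2 cannot give a two-sided p below 0.333, and the ratio was given no other test. The last 1153 bases of CCNE2's span overlap INTS8, an Integrator complex gene, which had a log2 fold change of -0.92 ± 0.37 (SE, edgeR adjusted p = 0.248). How reads in that stretch were assigned is not given in the sources used here, and its part in the CCNE2 value was not tested.

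The kinase genes were lower in high G0/G1 cells than in low ones, with a wide spread between the high libraries. CDK1 (chromosome 14, 64233945 to 64255290), the kinase of mitosis, had 47.4 and 7.09 CPM in high G0/G1 cells and 112 and 90.0 CPM in low G0/G1 cells. The high libraries were 6.69-fold apart, the widest gap among the 10 genes, while low replicate 1 was 1.25-fold above low replicate 2. The log2 fold change was -1.89 ± 0.84 (SE, edgeR adjusted p = 0.278), and its 95% interval, -4.04 to 0.26, included 0. CDK2 (chromosome 5, 21365723 to 21372170), the partner of cyclins E and A, stood at 42.1 and 10.005 CPM in high G0/G1 cells. In the low libraries CDK2 stood at 84.4 and 84.8 CPM, which differ by less than their counting error. The log2 fold change of CDK2 was -1.70 ± 0.66 (SE, edgeR adjusted p = 0.236).

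Among the phosphatases, CDC25A was the most even within groups. CDC25A, which acts on CDK2 and CDK1 and lies on a scaffold without a chromosome in the RefSeq annotation, had 15.7 and 11.6 CPM in high G0/G1 cells and 49.2 and 46.2 CPM in low G0/G1 cells. Its high libraries were 1.35-fold apart, the smallest gap among the 10 genes. CDC25A had a log2 fold change of -1.80 ± 0.26 (SE, edgeR adjusted p = 0.125), with a 95% interval from -2.46 to -1.15. Its unadjusted p was the smallest of the 10, at rank 87 of the 14352 genes tested, and its adjusted p equalled the smallest over all genes.

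CDC25B (chromosome 17, 31910824 to 31929418), which starts the activation of CDK1 in late G2, had 16.03 and 5.48 CPM in high G0/G1 cells and 26.7 and 35.9 CPM in low G0/G1 cells. For CDC25B low replicate 2 was the highest library, as it was, by less than counting error, for CCNB2 and CDK2. The log2 fold change was -1.54 ± 0.55 (SE, edgeR adjusted p = 0.215). CDC25C (chromosome 2, 140289156 to 140323696), which activates cyclin B with CDK1 at mitosis, had 5.64 and 1.76 CPM in high G0/G1 cells and 14.1 and 12.9 CPM in low G0/G1 cells. Its log2 fold change was -1.86 ± 0.61 (SE, edgeR adjusted p = 0.202).

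**Figure D2:**
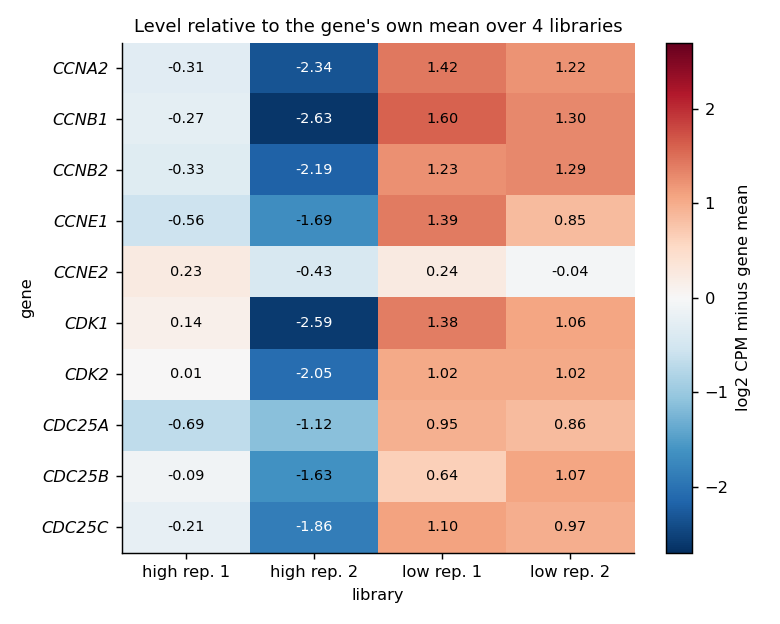
Log2 CPM of each gene in each library minus the gene's mean over the 4 libraries, with red above and blue below the mean. High replicate 2 is at -2.63 for CCNB1 and -2.59 for CDK1, and CCNE2 stays between -0.43 and 0.24.

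The high G0/G1 libraries differed from each other in all 10 genes. Averaged over the 10 genes, log2 CPM relative to each gene's own mean was -0.21 in high replicate 1 and -1.85 in high replicate 2, against 1.099 in low replicate 1 and 0.96 in low replicate 2. High replicate 1 was above high replicate 2 in 10 of 10 genes, each beyond the counting intervals of the pair. Over all genes tested it was above in 7600 of 14352. In 9 of the 10, all but CCNE2, high replicate 1 was above high replicate 2 and below both low libraries, a pattern that 21.5% of all genes tested had. The median absolute gap between the high libraries was 1.76 on the log2 scale over the 10 genes and 0.42 over all genes tested. Between the low libraries the median gap was 0.24 over the 10 genes and 0.29 over all genes tested.

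For 8 of the 10 genes the gap between the high libraries was larger than the distance from high replicate 1 to the mean of the low ones. The share of all genes tested for which this held was not computed. The exceptions among the 10 were CCNE1 and CDC25A, where both high libraries lay nearer to each other than high replicate 1 did to the low libraries. CDK1 had the widest gap between the high libraries, 2.73, against 1.08 from high replicate 1 to the low mean, on the log2 scale. For CDC25A these values were 0.43 and 1.60. CCNE2 was among the 8 with a gap of 0.67, and its low mean minus high replicate 1 was only -0.13. The flow cytometry values behind the grouping were not analysed here.

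**Figure D3:**
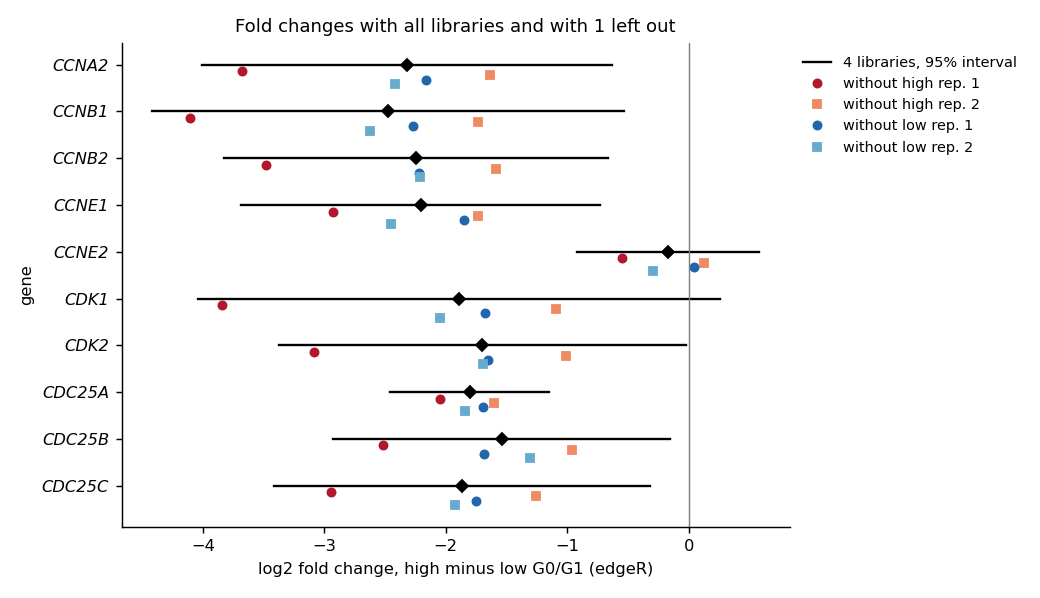
Log2 fold change of each gene, high minus low G0/G1, from edgeR's quasi-likelihood fit. Diamonds with lines are the fit to 4 libraries with its 95% interval, and coloured points are fits with 1 library left out. Leaving out high replicate 1 gives the lowest value for every gene, and the fits of CCNE2 with 1 library left out run from -0.55 to 0.13.

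The fold changes depended on which high library entered the fit, and the calls on both the libraries and the test. Without high replicate 1, edgeR's quasi-likelihood test called 8 of the 10 genes lower, all but CCNE1 and CCNE2, where 3.92% of all genes were called lower, and the median log2 fold change of the 10 was -3.02. The remaining high library was then assumed to vary like the low ones. Without high replicate 2 the median was -1.42, and without low replicate 1 it was -1.72. CDK1 moved most, to -3.84 without high replicate 1 (edgeR adjusted p = 0.0168) and to -1.09 without high replicate 2 (edgeR adjusted p = 0.183). CDC25A kept to a narrow range, from -2.04 without high replicate 1 to -1.60 without high replicate 2. Without low replicate 2, the library with the high stromal sum, the median over the 10 was -1.98. DESeq2, fitted to all 4 libraries, called 6 of the 10 lower, against 5.48% of the 13239 genes it gave an adjusted p. These were CCNA2, CCNB1, CCNB2, CCNE1, CDC25A and CDC25C, with DESeq2 adjusted p-values from 6.85e-06 for CDC25A to 0.0363 for CDC25C, and it called 0 of the 10 higher, against 5.79% of all genes. With 1 library left out as well, DESeq2 called 9 of the 10 lower in the fit without high replicate 1 (9.68% of all genes) and 6 in that without high replicate 2 (3.7%). In the fit that lacked low replicate 1 it called 0 of the 10 (0.943% of all genes), and in that lacking low replicate 2 it called 3 (1.09%). edgeR's likelihood ratio test called 5 of the 10 lower, against 3.72% of all genes.

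Ratios of counts between genes within 1 library show whether the parts of the machinery moved in step. Their size depends on transcript length, so only their change between libraries is read here, and the pairs were chosen with the counts known. The 15 ratios computed share genes with one another and were not tested. The ratio of CCNA2 to CDK2 was 0.821 and 0.842 in the high group and 1.36 and 1.18 in the low group, so that the high libraries nearly coincided although their CCNA2 levels were 4.10-fold apart. The ratio of CCNB1 to CDK1 was 1.22 and 1.59 in the high group and 1.90 and 1.92 in the low group. The ratio of CDK1 to CDK2 overlapped, at 1.13 and 0.709 in the high group and 1.33 and 1.06 in the low group. The ratio of CCNE2 to CDK2 was 1.48 and 3.91 in the high group and 0.740 and 0.603 in the low group, so that relative to its kinase CCNE2 was higher in both high libraries.

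**Figure D4:**
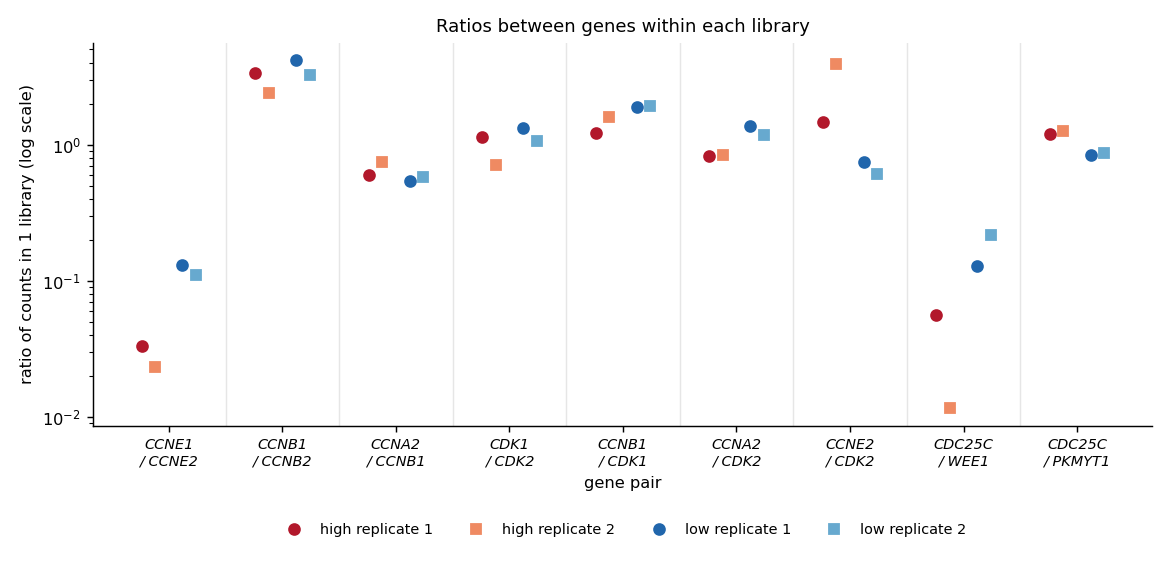
Ratio of the counts of 2 genes within each library, on a log axis, with high G0/G1 libraries on the left and low G0/G1 libraries on the right of each pair. CCNE1 to CCNE2 is 0.0335 and 0.0234 in the high group, against 0.132 and 0.110 in the low group.

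The list of regulators of these kinases, 31 genes named for their role, had 29 tested members. Of these, 20 had a negative and 9 a positive log2 fold change, against 50.6% negative over all genes tested, with a median of -1.27. None passed in edgeR's quasi-likelihood test, and at an unadjusted p under 0.05 there were 15 lower and 1 higher, against 10.8% and 9.92% of all genes. Both high libraries were below both low ones in 17 of the 29, against 29.8% of all genes tested, and above them in 6, against 26.8%. DESeq2 called 12 of the 29 lower and 1 higher, against 5.48% and 5.79% of all genes.

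The opponents of CDC25 at the kinases differed from each other. WEE1, the nuclear kinase that phosphorylates CDK1 and CDK2, had 101 and 151 CPM in high G0/G1 cells and 109 and 59.2 CPM in low G0/G1 cells, so the groups overlapped. Its log2 fold change was 0.59 ± 0.38 (SE, edgeR adjusted p = 0.413). PKMYT1, the membrane-bound kinase that acts on CDK1, had 4.70 and 1.40 CPM in high G0/G1 cells and 16.8 and 15.0 CPM in low G0/G1 cells, with a log2 fold change of -2.38 ± 0.63 (SE, edgeR adjusted p = 0.175). It was -3.50 without high replicate 1 (edgeR adjusted p = 0.0262) and -1.76 without high replicate 2. The count of CDC25C was 0.0560 and 0.0116 of that of WEE1 in the high group, against 0.129 and 0.218 in the low group. Relative to PKMYT1, CDC25C stood at 1.20 and 1.25 in the high group and at 0.836 and 0.861 in the low group. The direction of the CDC25C balance thus depended on which kinase it was set against.

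The subunits that bind the kinases, CKS1B and CKS2, were lower in high G0/G1 cells. CKS1B had 25.5 and 16.2 CPM in high G0/G1 cells and 52.8 and 47.1 CPM in low G0/G1 cells, with a log2 fold change of -1.26 ± 0.29 (SE, edgeR adjusted p = 0.169). CKS2 had 36.9 and 13.0 CPM in high G0/G1 cells and 129 and 69.1 CPM in low G0/G1 cells, with a log2 fold change of -1.99 ± 0.59 (SE, edgeR adjusted p = 0.186). Without high replicate 1 edgeR's test called both, CKS1B at -1.63 (adjusted p = 0.0376) and CKS2 at -2.94 (adjusted p = 0.0465). CDKN3, a phosphatase that removes the activating phosphate of CDK2, had 8.72 and 6.11 CPM in high G0/G1 cells and 18.4 and 17.8 CPM in low G0/G1 cells. The inhibitor genes CDKN1B and CDKN1A pointed the other way. CDKN1B, which encodes p27, had a log2 fold change of 0.71 ± 0.19 (SE, edgeR adjusted p = 0.176). For CDKN1A, which encodes p21, it was 1.44 ± 0.59 (SE, edgeR adjusted p = 0.252), with 101 and 158 CPM in high and 72.9 and 22.6 CPM in low G0/G1 cells. The inhibitor gene CDKN1C overlapped between the groups, at 3.89 and 4.88 CPM in high and 4.52 and 2.01 CPM in low G0/G1 cells (edgeR adjusted p = 0.691). With low replicate 1 left out CDKN1A stood at 2.58, and with low replicate 2 left out at 0.85. ENSA, which holds back the phosphatase that opposes CDK1 in mitosis, had 62.0 and 74.5 CPM in high G0/G1 cells and 47.0 and 53.9 CPM in low G0/G1 cells. Its log2 fold change was 0.44 ± 0.22 (SE, edgeR adjusted p = 0.311).

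**Figure D5:**
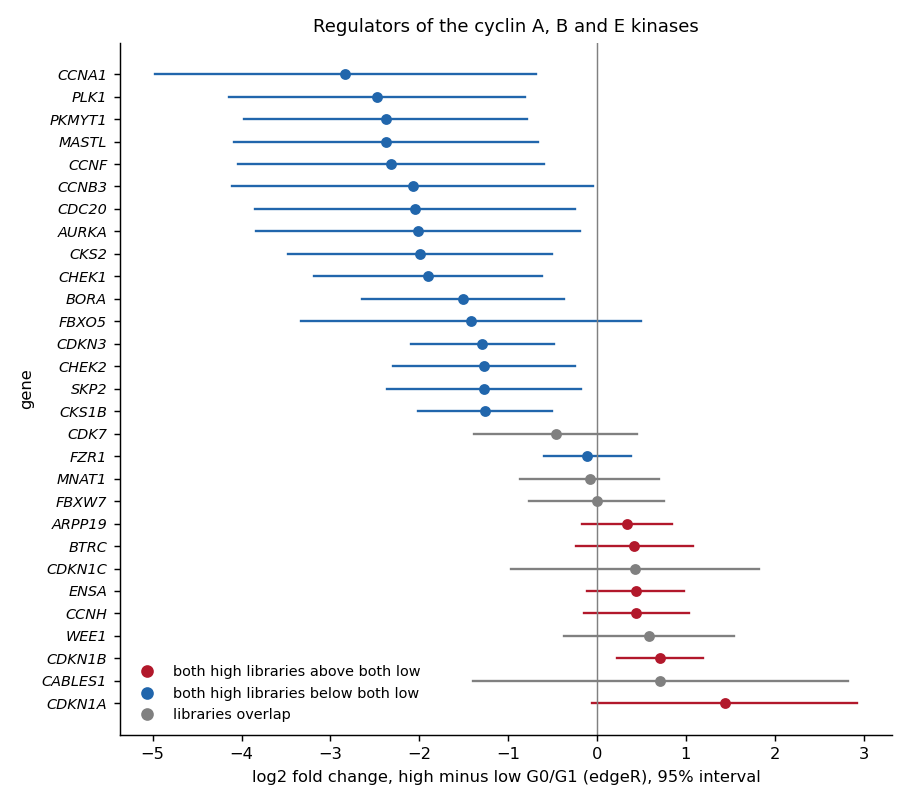
Log2 fold change of 29 regulators of the cyclin A, B and E kinases, high minus low G0/G1, with the 95% interval from edgeR. Blue marks genes with both high libraries below both low ones (17), red genes with both above (6) and grey genes whose libraries overlap (6).

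The genes outside the list with a profile nearest to the mean of the 10, by root mean square distance of centred log2 CPM over the 4 libraries, were PTTG1, LOC110256844, FANCI, NCAPD2 and PSRC1. PTTG1, which encodes securin, the inhibitor of separase, was nearest at 0.02 on the log2 scale, with 19.8 and 6.35 CPM in high G0/G1 cells and 50.6 and 45.6 CPM in low G0/G1 cells. Among the 10 themselves CDC25C lay nearest to their mean profile, at 0.01, and CCNE2 farthest, at 0.99. CCNB1 followed at 0.49, since it spread more than the mean, and CDC25A at 0.45, since its high libraries spread less. With 4 libraries many genes have like profiles, and the distances are a description of these libraries.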

How the data were processed

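The values are whole-number counts of reads by gene symbol, deposited by the authors in a single table whose 4 columns were matched to samples by title. Reads were aligned with HISAT2 to Sscrofa11.1, per the submitters' processing notes. Counter, strand setting, annotation release and filters are, in the sources used here, not stated, and how reads of overlapping genes were assigned is unknown. Total RNA was extracted with Trizol and used at an RNA integrity above a set limit, per the labels' protocols. Of 29884 rows, 29862 matched a symbol in RefSeq's gene table for Sscrofa11.1, the source of all coordinates.

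The high group was compared with the low group over 14352 genes with the quasi-likelihood test of edgeR 4.0.16 (R 4.3.3, TMM scaling, no covariate). The filter, filterByExpr, asked for a level worth about 10 counts in at least 2 libraries and for 15 counts in total. In fits with a library left out, the number of libraries asked for followed the size of the smaller group. Shares of all genes called by DESeq2 are shares of the genes to which that fit gave an adjusted p. P-values had Benjamini-Hochberg adjustment over the genes tested, with a threshold of 0.05. Standard errors were derived from the size of the log2 fold change and the F statistic, and 95% intervals use the fit's degrees of freedom (2 residual and 3.20 prior). Log2 CPM used a prior count of 2. Counting intervals are exact Poisson intervals for counting error alone, and take no account of variation between libraries or of PCR copies of reads. Alternatives were DESeq2 1.42.0, limma-voom (limma 3.58.1), edgeR's likelihood ratio test, other scalings (DESeq2 size factors, upper quartile, library totals), no filter, and each library left out. The 10 genes and the lists were chosen with earlier results of these data known. All 10 genes are named. Of the regulators, the 3 with the smallest p in each direction and CKS1B, CKS2, WEE1, PKMYT1, CDKN1A and CDKN1B are named. CDKN1C, CABLES1, CCNA1 and CCNB3 are named in addition. Of all other genes the 5 nearest in profile are named. Of 31 regulators, 30 had a row and 29 were tested. Promoter motifs and protein sequences were not analysed here.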

Additional observations from a re-analysis of the deposited data

How the results depend on the processing

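No paired analysis was possible because the labels give the libraries no shared replicate numbers, and the numbers used here only name them. Of the 10 genes, 9 had a negative log2 fold change under all 15 alternatives. CCNE2 turned to 0.13 with high replicate 2 left out and to 0.04 with low replicate 1 left out (with DESeq2, 0.15 and 0.0212), and it was -0.55 without high replicate 1. The counts of genes called lower and higher, which were 0 and 0 with all libraries in edgeR's quasi-likelihood test, were 725 and 767 with DESeq2, 534 and 557 with edgeR's likelihood ratio test, and 3 and 2 without a filter, while limma-voom and the other scalings called 0. With 1 library left out they ran from 0 to 591 lower and 0 to 363 higher, and with DESeq2 they were 1261 and 982 when high replicate 1 was absent, 470 and 391 when high replicate 2 was absent, 115 and 315 when low replicate 1 was left out, and 141 and 202 for the fit lacking low replicate 2. Of the 10 genes 6 were called lower by DESeq2, 5 by the likelihood ratio test and 0 by limma-voom, and 0 were called higher in any fit. With 1 library left out the count lower ran from 0 to 8, and with DESeq2 from 0 without low replicate 1 to 9 without high replicate 1. Of the regulators DESeq2 called 12 lower and 1 higher and the likelihood ratio test 9 lower; with 1 library left out the counts ran from 0 to 14 lower and 0 to 1 higher, and with DESeq2 from 1 to 16 and from 0 to 2. The median of the 10 genes ran from -3.02 to -1.42 and that of the regulators from -1.63 to -0.85 with 1 library left out; with DESeq2 these ran from -2.98 to -1.40 and from -1.59 to -0.83. The cause of these differences was not tested. Leaving out high replicate 1 moved 8 of the 10 fold changes by over 1.5 times and leaving out high replicate 2 moved 6, and leaving out either low library moved 0. The other scalings shifted the median of all genes to between -0.05 and 0.02 on the log2 scale. The gap between the high libraries exceeded counting error in all 10 genes, and the gap between the low libraries in 6.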

Other observations

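CCNE2 lies next to TP53INP1, a gene named in the study's title, on chromosome 4, with 35401 bases between the RefSeq spans and no annotated gene in between. This neighbour was looked at after the values were seen. TP53INP1 had 50.3 and 49.9 CPM in high G0/G1 cells and 15.9 and 19.5 CPM in low G0/G1 cells, a log2 fold change of 1.499 ± 0.23 (SE, edgeR adjusted p = 0.130), against -0.17 ± 0.29 (edgeR adjusted p = 0.773) for CCNE2 and -0.92 ± 0.37 (edgeR adjusted p = 0.248) for INTS8 on the other side. The high libraries nearly coincided for TP53INP1 and were 1.59-fold apart for CCNE2.

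CABLES1, an adaptor protein that binds CDK2, had 6.64 and 44.1 CPM in high G0/G1 cells and 14.6 and 16.3 CPM in low G0/G1 cells, and is named after its values were seen. The high libraries lay on either side of the low ones. Its log2 fold change was 0.71 ± 0.83 (SE, edgeR adjusted p = 0.655). CCNA1 and CCNB3, the cyclins A1 and B3 best known from germ cells in the mouse, were also lower in both high libraries. CCNB3 had 12.8 and 2.28 CPM in high G0/G1 cells and 26.1 and 37.5 CPM in low G0/G1 cells, and CCNA1 had 0.637 and 0.175 CPM in high G0/G1 cells and 1.98 and 3.88 CPM in low G0/G1 cells. Both were highest in low replicate 2, as were the oocyte marker GDF9 and the stromal, theca and endothelial sums. The 11 oocyte markers summed to 8.86 and 9.86 CPM in high G0/G1 cells and to 6.43 and 11.8 CPM in low G0/G1 cells. GDF9 made up nearly all of these sums, at 8.69 and 9.34 CPM in high and 6.40 and 11.5 CPM in low G0/G1 cells. GDF9 was higher in both high libraries than in low replicate 1. The part of oocyte RNA or of other cell types in the values of CCNA1 and CCNB3 was not tested.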
